A study of Homo sapiens with 6 samples.

Results

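The 10 genes described here encode the best known chaperones of the cytosol and the mitochondrion, and were taken as a named list from the 19987 protein-coding genes on sequences that held peaks. They are HSPD1, HSPE1, HSPA8, HSPA9, HSPA1A, HSPA1B, HSPH1, DNAJB1, HSP90AA1 and HSP90AB1. The data were peak lists from chromatin immunoprecipitation and sequencing (ChIP-seq) of V5-tagged TAF2 in HepG2-TAF2-V5, 1 clone of HepG2, an established human liver cancer line. The labels gave 3 libraries of the V5 immunoprecipitation and 3 control libraries of the same clone. The controls are called input in the treatment label and IgG in the library names, and their signal was not analysed here, so no background from control samples stands beside the values. How TAF2-V5 was expressed in the clone is not given in the sources used here. A peak was assigned to a gene when it touched the RefSeq gene span on GRCh38 or the 1000 bp on either side of it, in each library on its own.

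TAF2 belongs to TFIID, the complex that recognises core promoters before RNA polymerase II is recruited, and takes part in its contacts with DNA around the transcription start. Chaperones bind unfolded or partly folded proteins and keep them from aggregating. Some are made in all cells at high levels, and others are induced by heat and other protein stress through the transcription factor HSF1, which binds heat shock elements, inverted repeats of the letters GAA and TTC in the promoters of its targets. Genes of both kinds are among the 10, so the list joins constitutive and inducible promoters.

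Of the 10 chaperone genes, 5 had a peak in at least 2 libraries, and those 5 had a peak in 3 libraries. They were the chaperonin genes HSPD1 and HSPE1, the constitutive HSP70 gene HSPA8, the inducible HSP70 gene HSPA1B and the constitutive HSP90 gene HSP90AB1. By the same rule 751 of all 19987 protein-coding genes (3.76%) had a peak in at least 2 libraries, and 1.90% had one in 3 libraries. The mitochondrial HSP70 gene HSPA9 and the inducible HSP90 gene HSP90AA1 had a peak in 1 library each. HSPA1A, the HSP110 gene HSPH1 and the J domain gene DNAJB1 had none, so that 7 of the 10 had a peak in at least 1 library, against 8.67% of protein-coding genes. In single libraries, 5, 6 and 6 of the 10 genes had a peak in replicates 1, 2 and 3, against 3.70, 5.75 and 4.87% of protein-coding genes. With peaks in 3 libraries, the 5 genes stay called by construction whichever library is left out. The count over all genes was 562, 452 and 497 without replicates 1, 2 and 3. Since the list was named with earlier results on these libraries known, the share of its genes with peaks is a description, and no test was made over it.

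A selection of the promoters is shown as the 300 bases that RefSeq places around a transcription start on GRCh38.p14. These are 250 bases before the start and 50 from it onwards, each read 5′ to 3′ along its gene. Capitals mark the paired heat shock units GAANNTTC or TTCNNGAA, the letters TATAAA and the letters CCAAT, searched on both strands. The inner HSPD1 start (chr2:197499791-197500090, minus strand) is shown because the summits of its promoter peak fell in it, and HSPE1 (chr2:197500129-197500428, plus strand) because it holds the space between the pair. HSPA8 (chr11:123062087-123062386, minus strand) and HSP90AA1 at its inner start (chr14:102086995-102087294, minus strand) show heat shock elements under a peak. HSP90AB1, whose heat shock elements were not under its peaks, is not shown, so the selection favours elements under a peak. HSPA1B (chr6:31827488-31827787, plus strand) and HSPA1A (chr6:31815293-31815592, plus strand) show near-identical promoters with and without a peak.
HSPD1 inner start: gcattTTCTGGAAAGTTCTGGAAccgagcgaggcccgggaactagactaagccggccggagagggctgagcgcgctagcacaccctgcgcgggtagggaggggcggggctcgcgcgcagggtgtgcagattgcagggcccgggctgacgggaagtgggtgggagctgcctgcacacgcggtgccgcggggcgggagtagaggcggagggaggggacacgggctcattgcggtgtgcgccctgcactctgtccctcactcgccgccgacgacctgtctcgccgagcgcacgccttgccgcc
HSPE1: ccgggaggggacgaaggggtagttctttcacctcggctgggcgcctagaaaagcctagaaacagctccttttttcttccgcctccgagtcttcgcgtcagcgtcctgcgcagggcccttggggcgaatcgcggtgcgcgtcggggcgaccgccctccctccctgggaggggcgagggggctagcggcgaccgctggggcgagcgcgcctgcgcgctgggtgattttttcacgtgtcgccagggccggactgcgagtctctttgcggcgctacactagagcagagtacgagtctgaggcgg
HSPA8: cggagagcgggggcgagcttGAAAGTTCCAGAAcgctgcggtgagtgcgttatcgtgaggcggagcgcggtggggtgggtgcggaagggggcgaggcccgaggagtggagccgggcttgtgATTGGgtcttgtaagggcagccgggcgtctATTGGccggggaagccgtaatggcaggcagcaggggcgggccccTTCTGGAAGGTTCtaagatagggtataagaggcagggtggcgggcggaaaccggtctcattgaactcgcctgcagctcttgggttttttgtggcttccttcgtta
HSP90AA1 inner start: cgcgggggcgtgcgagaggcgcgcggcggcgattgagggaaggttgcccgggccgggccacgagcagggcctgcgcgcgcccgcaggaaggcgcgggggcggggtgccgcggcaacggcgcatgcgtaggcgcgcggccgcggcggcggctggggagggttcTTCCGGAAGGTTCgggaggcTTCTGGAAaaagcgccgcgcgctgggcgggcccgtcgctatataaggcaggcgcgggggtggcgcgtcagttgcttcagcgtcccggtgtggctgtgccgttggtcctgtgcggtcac
HSPA1B: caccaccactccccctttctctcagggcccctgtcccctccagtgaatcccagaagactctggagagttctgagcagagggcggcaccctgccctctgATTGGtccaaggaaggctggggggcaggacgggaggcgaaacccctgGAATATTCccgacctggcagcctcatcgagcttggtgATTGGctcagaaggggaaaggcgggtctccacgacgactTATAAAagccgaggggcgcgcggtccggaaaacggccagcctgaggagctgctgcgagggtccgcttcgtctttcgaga
HSPA1A: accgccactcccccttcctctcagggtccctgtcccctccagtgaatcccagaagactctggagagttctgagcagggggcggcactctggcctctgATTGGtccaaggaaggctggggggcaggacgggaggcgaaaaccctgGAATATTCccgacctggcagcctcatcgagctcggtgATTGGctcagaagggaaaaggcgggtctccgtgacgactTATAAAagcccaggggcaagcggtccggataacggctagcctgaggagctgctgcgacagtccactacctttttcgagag

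HSPD1 encodes HSP60, the barrel-shaped chaperonin of the mitochondrial matrix, and HSPE1 encodes HSP10, the lid of that barrel. The genes lie head to head on chromosome 2 (HSPD1 197486584 to 197500274, HSPE1 197500379 to 197503449), and their outer starts are 105 bp apart. A single peak per library covered both of these starts and the space between them, in a merged region of 625 bp (chr2:197499764-197500388). Its fold, taken to be over the background of the authors' peak caller, was 5.78, 6.34 and 8.24 in replicates 1, 2 and 3. These values placed it at percentile 72.2, 75.3 and 95.1 of all peaks of the same list. The fold is the authors' value for a peak and ranks peaks within 1 list. By rank the peak was in the upper part of each list and highest in replicate 3.

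The summits of this shared promoter peak did not lie between the outer starts. They lay 381, 279 and 336 bp inside HSPD1 from its outer start in replicates 1, 2 and 3. RefSeq lists a second start of HSPD1 there, and measured from it the summits were at -53, -155 and -98 bp, where a negative distance is upstream along the gene. From the start of HSPE1 they were at -486, -384 and -441 bp. The 3 summits fell within 102 bp of each other. An uninterrupted run of 4 heat shock units, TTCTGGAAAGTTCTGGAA, stands 245 to 228 bases upstream of the inner HSPD1 start (chr2:197500068-197500085), the first capitals of the HSPD1 sequence above. The promoter peak covered this run in each library, with its summit 175, 73 and 130 bp away in replicates 1, 2 and 3.

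Among divergent pairs of protein-coding genes, HSPD1 and HSPE1 were 1 of a few with a peak touching the space between their starts. With the outermost listed starts at most 1000 bp apart, 802 such pairs were found, with a median distance of 180.5 bp. A peak touched the interval between the starts in at least 2 libraries at 11 pairs (1.37%) and in 3 libraries at 2 pairs (0.249%). The other pair with 3 libraries was SNX5, a sorting nexin gene, with MGME1, a mitochondrial exonuclease gene. The readthrough gene HSPE1-MOB4 shares the start of HSPE1, so a peak at that start cannot be told apart between them.

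Peaks at the pair were not confined to the promoter. HSPD1 had 6, 4 and 5 peaks in replicates 1, 2 and 3, and HSPE1 had 4, 2 and 5, with shared peaks counted at both. At least 4 peaks in each of the 3 libraries were found at 33 of all protein-coding genes (0.165%), of which 4, HSPD1 included, spanned no more than its 13691 bp. The median span of the 33 genes was 57.6 kb. The widest peaks at the pair lay inside HSPD1, in a merged region of 1827 bp (chr2:197497585-197499411) with folds of 8.12, 6.95 and 8.21 in replicates 1, 2 and 3. These peaks were at percentile 94.5, 83.5 and 94.9. By fold, the strongest peak of HSPD1 in replicates 1 and 2 was in the body of the gene and not at the promoter. In replicate 3 the promoter and the body peak had nearly the same fold. By −log10 q the body peak was the higher in replicate 1 (13.97 against 10.62 at the promoter). The promoter peak was the higher by −log10 q in replicate 2 (9.92 against 8.61) and replicate 3 (19.62 against 13.67). The summits of the body peaks were 2441, 2030 and 2128 bp from the outer start. The gene table holds no exons, so whether the body peaks lie over exons or introns was not determined.

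Farther inside HSPD1, regions at chr2:197495932-197496714 and chr2:197496897-197497539 also held peaks of 3 libraries, with mean rank percentiles of 38.4 ± 30.8 and 27.9 ± 14.8 (SD, n = 3). The ranks in the first of them ran from 5.25 in replicate 3 over 43.8 in replicate 1 to 66.1 in replicate 2, which is wider than at the promoter. On the side of HSPE1, a region of 1280 bp (chr2:197500883-197502162) held peaks of 3 libraries. Its strongest peaks had folds of 6.63, 4.73 and 6.07 in replicates 1, 2 and 3, with summits 1538, 1592 and 1655 bp from the HSPE1 start. A last region (chr2:197502567-197502879) had peaks in replicate 1 (fold 4.23) and replicate 3 (fold 5.002). The strongest peak of each library was also taken per gene. Its mean rank percentile was 91.0 ± 6.50 at HSPD1 and 85.6 ± 9.90 at HSPE1 (SD, n = 3), the highest of the 10 genes in this measure. In replicates 2 and 3 the HSPE1 value is that of the shared promoter peak, whose summits lie inside HSPD1. Peaks assigned to HSPE1 and not to HSPD1 ranked at most at percentile 86.4, 33.8 and 76.8 in replicates 1, 2 and 3.

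**Figure D1:**
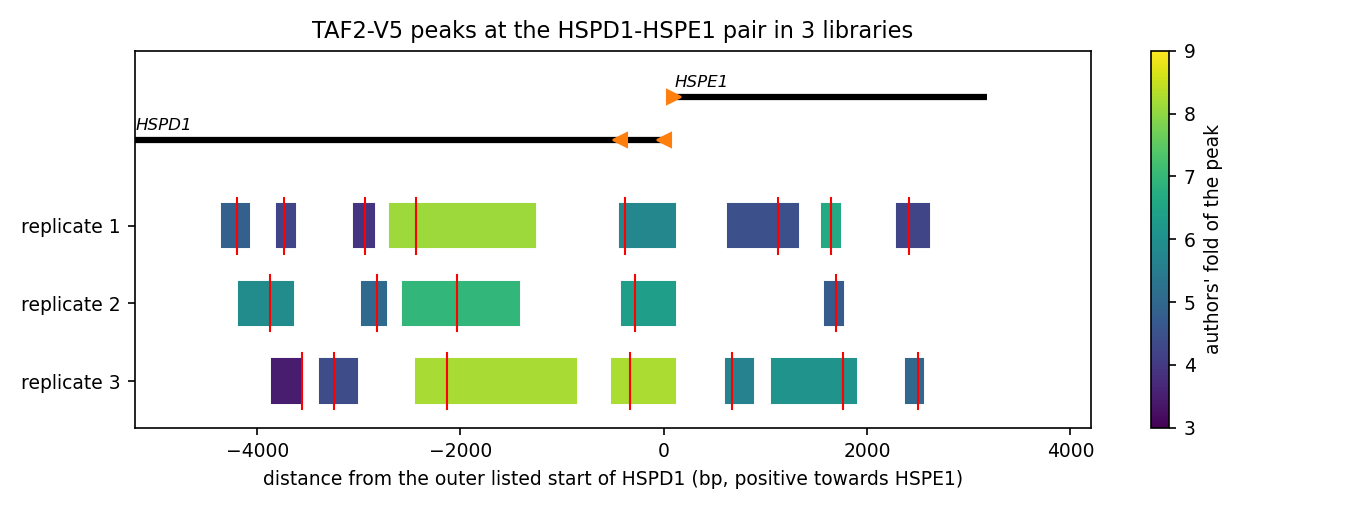
Peaks of the 3 V5 libraries at HSPD1 and HSPE1, with the distance from the outer listed start of HSPD1 in bp on the horizontal axis and a row for each library. Bars are peaks coloured by the authors' fold, red lines are summits, black lines are gene spans and orange arrowheads are listed starts with their direction. A peak spans the shared promoter in each library (folds 5.78, 6.34 and 8.24), and a wider peak lies farther inside HSPD1 (folds 8.12, 6.95 and 8.21).

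HSPA8 encodes HSC70, the constitutive cytosolic HSP70 (chromosome 11, 123057489 to 123062462, minus strand). It had 3, 2 and 4 peaks in replicates 1, 2 and 3. At its 5′ end replicates 2 and 3 shared a region (chr11:123062000-123062486) with folds of 5.34 and 5.91 at percentile 53.2 and 74.8. Replicate 1 had no peak there. The summits of replicates 2 and 3 were 3 bp apart, at -304 and -307 bp from the listed start, and 22 and 19 bp inside the annotated end of the gene. Both peaks reached the listed start and covered both 3-unit heat shock elements of the window, GAAAGTTCCAGAA at 230 to 218 bases upstream and TTCTGGAAGGTTC at 55 to 43 bases upstream. The summits lay 74 and 77 bp from the first of these in replicates 2 and 3. The noncoding gene LOC124902775 also lies within 1000 bp of these peaks.

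Inside HSPA8 the libraries held peaks at neighbouring and not at identical places. The region with peaks of 3 libraries (chr11:123059960-123060956) had folds of 5.17, 4.98 and 7.05, and its summits spread over 725 bp. The peak of replicate 3 was the strongest at this gene by fold, at percentile 88.8. By −log10 q the replicate 3 peak at the 5′ end was higher (8.30 against 7.91). A further region (chr11:123060985-123061402) had peaks in replicate 1 (fold 4.49) and replicate 3 (fold 4.66), and 2 regions had a peak in 1 library. HSPA8 hosts small nucleolar RNAs of the SNORD14 family in its span, and SNORD14C and SNORD14D lie within 1000 bp of some of the body peaks. The mean rank percentile of the strongest peak was 65.8 ± 19.9 (SD, n = 3).

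HSPA1A and HSPA1B encode essentially the same major heat-inducible HSP70 protein from near-identical genes on chromosome 6 (31815543 to 31817942 and 31827738 to 31830254, plus strand). HSPA1B had a peak at its start in replicates 2 and 3 (chr6:31827519-31827805), with folds of 4.16 and 4.46 and summits at -45 and 15 bp from the start. In replicate 1 the gene counted through a peak of fold 4.42 past its 3′ end, 2797 bp from the start. The ranks were low in each list, at percentile 31.4, 16.2 and 28.6, with a mean of 25.4 ± 8.10 (SD, n = 3). With −log10 q required to reach 5, HSPA1B no longer had peaks in 2 libraries and the count of called genes was 4 of 10.

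HSPA1A had no peak, and the nearest lay 9.58 kb away, at the HSPA1B start in replicate 3. The 300-base promoter windows of HSPA1B and HSPA1A aligned with 277 identical bases, 22 mismatches and 2 gaps, an identity of 92.0%. Both hold a TATAAA, at 29 bases upstream of the start in HSPA1B and 30 in HSPA1A, the paired units GAATATTC at 105 and 106, and the letters ATTGG, the reverse complement of CCAAT, at 152 and 68 in HSPA1B and 153 and 69 in HSPA1A. The peaks of HSPA1B in replicates 2 and 3 covered the GAATATTC. How reads that match both copies were placed is not given in the sources used here, so the assignment of the peak to HSPA1B and the absence at HSPA1A are uncertain.

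HSPA9 encodes mortalin, the HSP70 of the mitochondrial matrix that also takes part in protein import (chromosome 5, 138553756 to 138575401, minus strand). Its single peak was in replicate 2 (fold 4.84, percentile 37.7), with a summit at -436 bp from the start, outside the gene. The noncoding gene LOC105379193 lies within 1000 bp of this peak. HSPH1 encodes HSP105, a nucleotide exchange factor of HSP70 (chromosome 13, 31134973 to 31162388), and the nearest peak to it was 897 kb away. DNAJB1 encodes HSP40, a J domain protein that hands substrates to HSP70 (chromosome 19, 14514769 to 14560391), and the nearest peak to it was 1081 kb away. In a list of peaks above a threshold, no peak does not show that TAF2-V5 was absent.

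HSP90AB1 encodes the constitutive cytosolic HSP90 (chromosome 6, 44246194 to 44253883, plus strand) and has 3 listed starts. A region next to the outermost start (chr6:44246116-44246584) held peaks of 3 libraries with folds of 4.07, 4.96 and 4.98 in replicates 1, 2 and 3. Their summits agreed to 25 bp, at 249, 249 and 274 bp downstream of that start. Their ranks were at percentile 19.2, 41.9 and 46.4 by fold, and 49.5, 69.1 and 77.0 by −log10 q. In replicates 2 and 3, but not in replicate 1, they had the highest −log10 q of the peaks at this gene. A second region (chr6:44248120-44248980) lay downstream of the innermost start, with folds of 5.98, 4.09 and 5.53 and summits 338, 705 and 295 bp from it. In replicate 2 a further peak (fold 5.24) had its summit at -46 bp from the middle start. The mean rank percentile of the strongest peak per library was 63.5 ± 12.8 (SD, n = 3).

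The heat shock elements of HSP90AB1 were not under its peaks. The window of the innermost start holds the 3-unit elements TTCTGGAAGATTC, 165 to 153 bases upstream, and TTCTGGAAGCTTC, 112 to 100 bases upstream. The nearest summits to the second of them were 438, 776 and 395 bp away in replicates 1, 2 and 3. HSP90AA1 encodes the inducible cytosolic HSP90 (chromosome 14, 102080742 to 102139749, minus strand) and had a peak in replicate 3 (chr14:102087044-102087254, fold 4.83, percentile 41.4 by fold and 65.4 by −log10 q). That peak was at the inner of its listed starts, with the summit at -69 bp, 7 bp from the 3-unit element TTCCGGAAGGTTC and 1 bp from the paired units TTCTGGAA. No peak lay there in replicates 1 and 2.

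**Figure D2:**
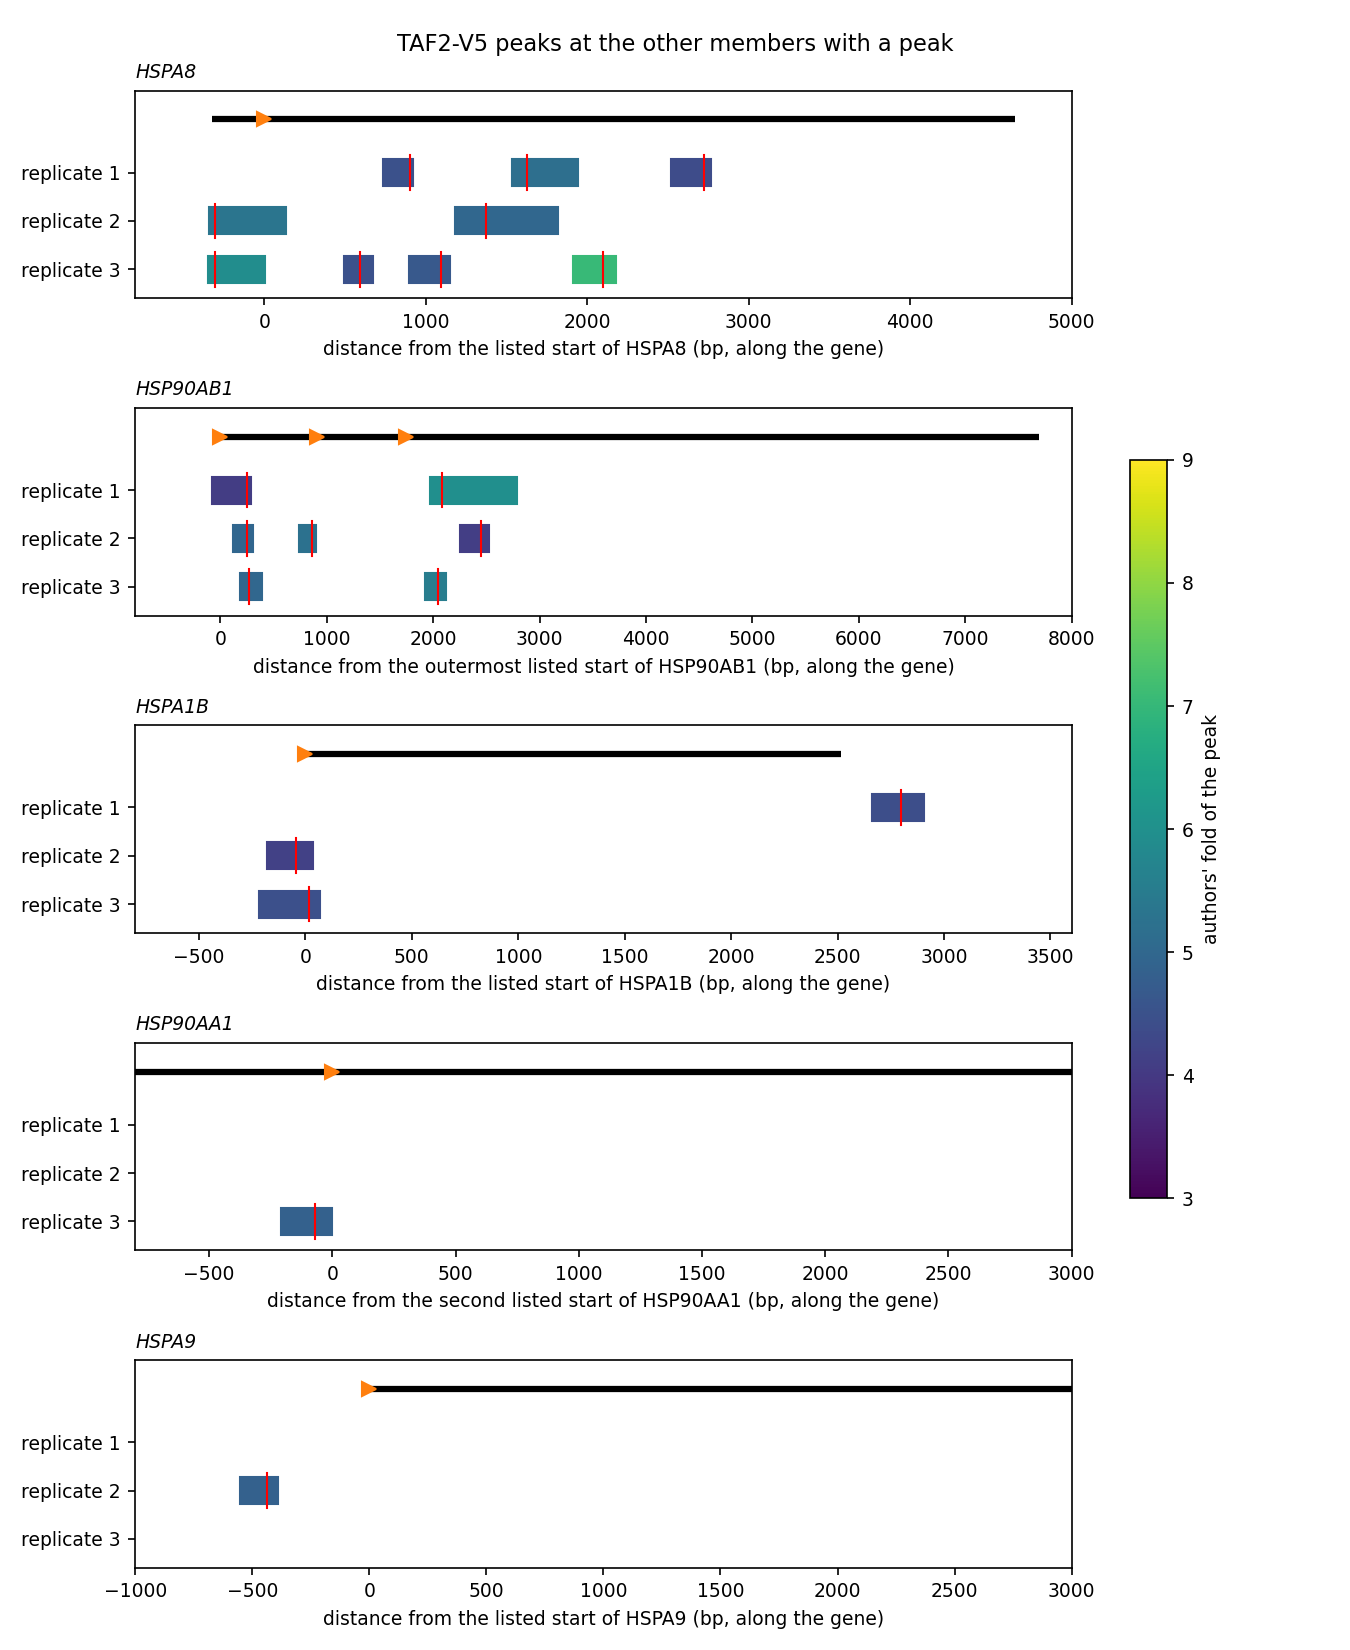
Peaks at the other chaperone genes with a peak, with the distance along the gene from a listed start in bp on each horizontal axis and a row for each library. Bars are peaks coloured by the authors' fold, red lines are summits, black lines are gene spans and orange arrowheads are listed starts. The summits at the outermost HSP90AB1 start (249, 249 and 274 bp) and those at the HSPA8 end in replicates 2 and 3 (-304 and -307 bp) lie close together, whereas HSPA1B has its replicate 1 peak at the opposite end.

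Listed starts were also used in place of gene spans. The same 5 genes had a peak within 1000 bp of a start in at least 2 libraries, and 4 of them in 3 libraries, with HSPA1B in 2. These are not 5 separate promoters, since the promoter peak shared by HSPD1 and HSPE1 counts at both. In replicate 2 it was the only peak within 1000 bp of the HSPE1 start. In replicate 1 HSPA8 counted only through a body peak of fold 4.49, with its summit 900 bp downstream of the start. Among the 15813 protein-coding genes with a listed start the shares were 1.38% and 0.594%. At least 2 peaks in each of the 3 libraries were found at 4 of the 10 genes, HSPD1, HSPE1, HSPA8 and HSP90AB1, against 0.675% of protein-coding genes. Over all protein-coding genes with a summit within 1000 bp of a start, the median summit nearest to a start was at -77.5, -100.0 and -76 bp in replicates 1, 2 and 3. By this measure, with the summit nearest to any start taken for each gene, 2 of 4, 0 of 6 and 2 of 6 chaperone genes had it downstream, against 32.1, 26.3 and 25.8% of all such genes. The median over the chaperone genes was at 98.0, -229.5 and -83.5 bp.

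The peaks at the 10 genes were of modest rank by their median and unevenly spread over the genes. They numbered 14, 12 and 15 in replicates 1, 2 and 3 with shared peaks counted once, and their median rank was at percentile 32.9, 43.3 and 48.6 of the lists. HSPD1 alone had 15 peaks over the 3 libraries, the most of the 10 genes, and HSPA1A, HSPH1 and DNAJB1 had none. The lists held 1599, 2557 and 1887 peaks, and since read totals are not part of them, sequencing depth is unknown. Merged across libraries the peaks made 18 regions, 8 with peaks from 3 libraries, 4 from 2 and 6 from 1. Regions shared by at least 2 libraries thus made up 66.7% of the regions at these genes and 36.7% of the 3783 regions of the whole series. At HSPD1 and HSPE1 6 of 6 regions were shared, and at the other chaperone genes 6 of 12 regions were shared (50%). The shared regions at these genes numbered 12, but 7 without replicate 1, and 5 with −log10 q required to reach 5.

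**Figure D3:**
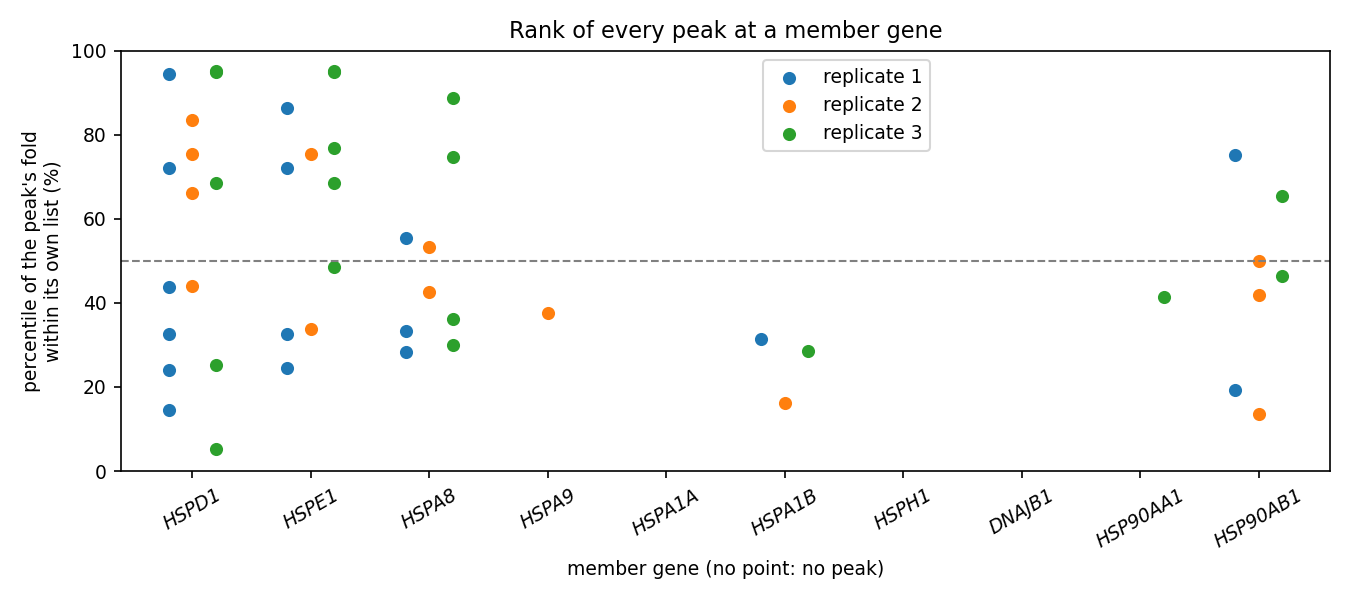
Rank of every peak at the 10 genes, as the percentile of its fold within the list of its own library in percent, with a colour for each library and a dashed line at the middle of a list. Peaks shared by HSPD1 and HSPE1 are drawn at both. The highest points are at HSPD1 and HSPE1 (percentile 95.1 in replicate 3), and those of HSPA1B lie at 31.4, 16.2 and 28.6.

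Heat shock elements were looked for in the promoter windows because HSF1 acts through them, a choice made after the peaks were seen. The 3-unit forms GAANNTTCNNGAA and TTCNNGAANNTTC stood in 4 of the 16 windows of the 10 genes, those of HSPD1 (inner start), HSPA8, HSP90AA1 (inner start) and HSP90AB1 (innermost start), against 0.402% of 22132 windows of protein-coding genes. The 2-unit forms, which lie within the 3-unit ones, stood in 9 of the 16 windows, against 11.6%. Merging overlapping matches gave 13 elements in 8 genes, of which 1 was under a peak in 3 libraries, 3 in 2, 2 in 1 and 7 in none. At HSPA8 and HSP90AA1, elements of the same window lay under the same peak, so they do not count separately. The share of such elements under a peak over all promoter windows was not determined, so the count is a description only. The letters TATAAA stood in 2 of the 16 windows, those of HSPA1A and HSPA1B, against 9.46%. CCAAT stood in 7 of the 16 windows, against 34.6%, and the GC box GGGCGG in 15, against 56.3%, on either strand. The 16 windows are not separate promoters. Those of the outer HSPD1 start and of HSPE1 overlap, and the same GC box counts in both. The near-identical windows of HSPA1A and HSPA1B are also both among those with CCAAT. A match is a run of letters and not a measured site of binding. The G and C content of the 16 windows had a median of 65.7%, against 62.3% over all windows.

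Other genes of protein folding were described from a list of 89 chaperone, co-chaperone and mitochondrial quality control genes. Of these, 3 had a peak in at least 2 libraries (3.37%), 7 in 1 library and 79 in none, which is near the 3.76% of protein-coding genes. The 3 were PTGES3, HSPA5 and DNAJB12. Without replicate 1 the count was 1, PTGES3, and it was 1 with peaks of at least 5-fold. Within 1000 bp of a listed start, 0 of 75 had a peak in at least 2 libraries, which allows a share of up to 4%. By the same rule it was 5 of the 10 genes above, with shared peaks counted at both HSPD1 and HSPE1, and 1.38% of protein-coding genes. None of the 8 TRiC chaperonin subunits, 6 prefoldin subunits or 9 small heat shock protein genes had a peak in 2 libraries. In lists this small, such counts cannot be told apart from the 3.76% of protein-coding genes.

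PTGES3 encodes p23, a co-chaperone of HSP90 (chromosome 12), and had 4, 5 and 1 peaks in replicates 1, 2 and 3. Its region with 3 libraries (chr12:56683892-56684453) had folds of 7.44, 6.14 and 5.91, with summits 4069, 3896 and 3913 bp downstream of the start, inside the gene. The mean rank percentile of its strongest peak was 83.1 ± 8.60 (SD, n = 3). HSPA5 encodes BiP, the HSP70 of the endoplasmic reticulum (chromosome 9). Its peaks were at the start in replicate 1 (fold 4.81, summit at -30 bp) and 1310 bp inside the gene in replicate 2 (fold 8.36), and did not overlap. DNAJB12, a J domain gene (chromosome 10), had its shared peak 19784 and 19799 bp from the start in replicates 1 and 3 (folds 4.48 and 5.07). The genes with a peak in 1 library were HYOU1, HSP90B1, DNAJC7, TCP1, CCT8, HSF4 and CLPB.

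**Figure D4:**
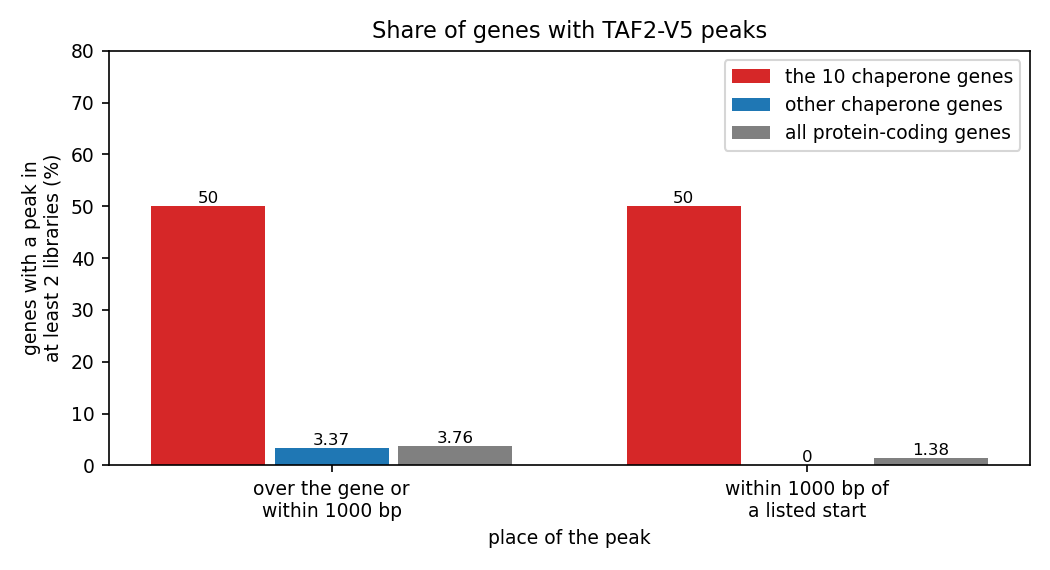
Share of genes with a peak in at least 2 libraries, in percent, for the 10 chaperone genes, the other chaperone genes and all protein-coding genes, by the place of the peak. The shares over the gene or within 1000 bp are 50, 3.37 and 3.76%, and those at a listed start are 50, 0 and 1.38%. The 10 genes were named with earlier results known, and peaks shared by HSPD1 and HSPE1 count at both.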

How the data were processed

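Peak lists of 3 V5 libraries were analysed. The labels conflict on the 3 controls, which the protocol and library names call IgG and the titles and treatment call input. GRCh38 is the build in the submitters' processing notes. What was used as aligner, caller, threshold and control, and how reads with several matches were handled, was not given in the sources used here. The authors called peaks per library, and the deposited fold was taken to be each peak's linear ratio to the caller's background. The deposited −log10 p and −log10 q values are the caller's. The deposited score is −log10 q times 10 without its decimals and went unused. Summits are deposited offsets from the peak start. Nothing says that the libraries are from separate cultures, so spreads between them may be technical.

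Coordinates are 1-based. Genes, starts and promoter sequences were taken from RefSeq tables of GRCh38.p14. All 10 members and all 89 other chaperone genes matched by symbol. Peaks of different libraries that overlapped by at least 1 bp, and peaks joined through them, were merged into regions. A percentile is the share of a list with an equal or lower fold. The members, gene lists and rule for naming genes were chosen with earlier results of these data known, and no test was made over them. The rule named all members, other chaperone genes with a peak, neighbours within 1000 bp of a member's peak, and pseudogenes of members with a peak. Other genes were named after their values were seen. Alternatives covered windows, stricter peaks, the number of libraries and each replicate left out. As a check of the counting only, simulated peaks were placed within the assignment window of 200 genes in at least 2 libraries. All 200 were called among 19974 genes, an outcome that the placement fixed in advance. Calculations used Python 3.11.15, numpy 2.4.6, pandas 2.3.3, Biopython 1.88 and matplotlib 3.10.9.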

Additional observations from a re-analysis of the deposited data

How the results depend on the processing

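The 5 chaperone genes with peaks in at least 2 libraries numbered 4 to 7 under the 13 other settings. Leaving out a replicate gives 5 by construction, since each of these genes has peaks in 3 libraries. HSPA1B was the gene lost with −log10 q of at least 5, a fold of at least 5 or the strongest 1000 peaks. The shared regions over these genes numbered 12, also with an overlap of 50% of the shorter peak. They numbered 5 with −log10 q of at least 5 and 7 to 10 with a replicate left out. Among the other chaperone genes the count of 3 became 0 at either annotated end or at a listed start, 1 with a fold of at least 5 or in 3 libraries, 10 in any library, and 1 to 2 with a replicate left out. Over all protein-coding genes the count of 751 became 274 at annotated ends, 219 at listed starts, 382 with −log10 q of at least 5, 408 with a fold of at least 5, 388 with the strongest 1000 peaks, 1732 in any library and 380 in 3 libraries, and 452 to 562 with a replicate left out. These shifts follow from narrower windows, fewer peaks or another number of libraries. Mean rank percentiles at the 5 genes moved by less than 1 SD between replicates when peaks were ranked by −log10 q. With a replicate left out they also did, but by construction, since dropping 1 of 3 values cannot move their mean by 1 SD. The listed starts, the removal of peaks shared by HSPD1 and HSPE1, and the percentiles with a replicate left out were chosen after seeing the data. Shared peaks were removed for gene spans only and not for listed starts. No paired analysis was possible because no peak list of the control libraries was analysed. Depth is unknown, and a peak below the caller's threshold cannot be told from none.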

Other observations

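Pseudogenes of the 10 genes are numerous in the human genome, and none carried a peak. The gene table lists 85 of them, 28 of HSPE1, 22 of HSPD1, 20 of HSPA8, 6 of the HSP90AB kind, 5 of the HSP90AA kind and 2 each of HSPA9 and DNAJB1, and 0 of the 85 had a peak over the span or within 1000 bp in any library, which allows a share of up to 3.53%. Of all 16664 pseudogenes in the table, 0.390% had a peak in any library, and 0 of 85 cannot be told apart from that share. How reads that match a gene and its copies were placed is not given in the sources used here, and its part in these zeros was not tested.

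A 3-unit heat shock element was present in a promoter window of 84 protein-coding genes. A peak within 1000 bp of a start in at least 2 libraries was found at 5 of these (5.95%), HSPD1, HSPA8, HSP90AB1, the splicing factor gene HNRNPA2B1 and XPO1, which encodes a nuclear export receptor. Without the 4 chaperone genes described above, 2 of 80 (2.50%) had such a peak, against 1.38% of all protein-coding genes with a listed start. These counts were made after the peaks were seen, and no test was made on them.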
